A study of Mus musculus with 8 samples.

Results

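The MHC class II genes were examined in the whole pregnant mouse uterus after injections meant to remove regulatory T cells. The set held the classical chains H2-Aa, H2-Ab1 and H2-Eb1, the invariant chain Cd74, the transactivator Ciita, the peptide-editing chains H2-DMa, H2-DMb1 and H2-DMb2, and the editing inhibitor chains H2-Oa and H2-Ob. These 10 genes were taken by symbol, each matched 1 row of the 49585 genes in the deposited count table, and all 10 passed the filter on low counts.

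Both groups were Foxp3DTR females, 8 weeks old, mated with BALB/c males and collected at day 8 of pregnancy (E8). The Foxp3DTR allele puts a diphtheria toxin receptor under Foxp3 control, which makes cells with this regulatory T cell factor sensitive to the toxin. The labels describe a loss of 85% of regulatory T cells from the regimen. The females labelled DT (4 libraries, DT 1, DT 3, DT 4 and DT 5) received 1 µg of diphtheria toxin into the peritoneum at E1, E3, E5 and E7, and the females labelled PBS (4 libraries, PBS 1, PBS 2, PBS 4 and PBS 6) received PBS. Every female carried the receptor allele, so toxin exposure itself and loss of Foxp3-expressing cells cannot be told apart in these groups. The uterus was collected with the fetal tissue inside it, so each library also holds RNA of conceptuses with a BALB/c father. The strain on which the females carry the allele is not given in the sources used here. The protocol counts 4 females a group, and each library was taken as 1 female. The sample titles end in a suffix shared by pairs of libraries of 1 group (DT 1 with DT 3, DT 4 with DT 5, PBS 1 with PBS 2, PBS 4 with PBS 6). Its meaning is not given in these sources, no suffix spans both groups, and whatever it marks cannot be told apart from treatment. If it marks a shared source, the p-values here are too small.

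MHC class II molecules are pairs of an alpha and a beta chain that show peptides from the endocytic route to CD4+ T cells. The pair is built in the endoplasmic reticulum around the invariant chain, which blocks the groove until proteases such as cathepsin S cut it away in late endosomes. H2-DM then exchanges the remaining invariant chain fragment for other peptides, and H2-O restrains H2-DM. Ciita does not bind DNA itself: it docks on RFX, CREB and NF-Y factors that sit on the X and Y boxes of class II promoters. Dendritic cells, B cells and some macrophages express the genes constantly, and interferon-gamma induces Ciita in many other cells. In the uterus, class II on decidual dendritic cells and macrophages is a route by which paternal antigens can reach maternal T cells.

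The promoters are shown so that members with matches to an X and a Y motif can be compared with those without such matches. RefSeq promoter windows of GRCm38.p6 matched 7 of the 10 genes. Each window covers 250 bases before the gene's start and a shorter stretch after it, and was searched whole. The forward-strand motif TGATTGG, which holds the ATTGG core of the Y box, was found in 6 of these 7, and an X box stretch in 4 of 7. The X stretch was AAC, any 2 letters, then ATGATG. Both motifs were written after these windows had been read and were searched on both strands, and they do not overlap in any member. Over all 32851 promoter windows in the table, 7.82% held the first motif, 0.137% the second and 0.0274% both. Capitals mark the matches in the stretches below, which are given 5′ to 3′ on the gene's own strand.
H2-Aa (chr17:34287861-34287913, minus strand): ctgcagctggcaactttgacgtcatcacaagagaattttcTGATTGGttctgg
H2-Eb1 (chr17:34305766-34305818, plus strand): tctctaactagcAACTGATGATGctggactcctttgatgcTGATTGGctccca
H2-DMb2 (chr17:34145117-34145169, plus strand): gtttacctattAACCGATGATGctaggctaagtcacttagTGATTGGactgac
H2-Oa (chr17:34092294-34092346, plus strand): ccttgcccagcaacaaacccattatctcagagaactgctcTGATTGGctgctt
H2-Ob (chr17:34238806-34238858, plus strand): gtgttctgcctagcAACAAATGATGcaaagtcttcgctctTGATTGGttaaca

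The Y motif began 45 bases before the start of H2-Oa, 50 before that of H2-Aa, 59 before that of H2-Ob, 61 before that of H2-Eb1 and 92 before that of H2-DMb2. The gap from the X motif to the Y motif was 15 bases in H2-Ob, 17 in H2-Eb1 and 18 in H2-DMb2. H2-DMb1 held both motifs with the same gap of 18 bases. Neither motif was found in the 2 windows of H2-DMa. The starts are those of RefSeq. For H2-DMb2 and H2-DMa, and by fewer bases for H2-DMb1, H2-Oa and H2-Ob, they lie inside the longer gene that GENCODE annotates. The coordinates of that gene are given with the values. A match describes these letters and not binding, and a missing match does not show that a box is absent. Among the genes that held both motifs, H2-Eb1 and H2-DMb1 rose in uteri labelled DT, and H2-DMb2 and H2-Ob did not pass the test described next.

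Of the 10 genes, 7 rose in uteri labelled DT and 0 fell (edgeR quasi-likelihood, adjusted p under 0.05), where 0.322% of the 22693 genes tested rose and 0.00441% fell. At an unadjusted p under 0.05, 8 of the 10 were higher, where 4.72% of all genes were. For the 7 called genes every DT library lay above every PBS library, a pattern seen in 3.33% of all genes tested. The 7 were H2-Aa, H2-Ab1, H2-Eb1, Cd74, Ciita, H2-DMa and H2-DMb1. H2-DMb2, H2-Oa and H2-Ob did not pass. Over all 10 genes the log2 fold changes had a median of 1.12, and those of all genes tested had one of 0.01. Values per gene are CPM, read counts scaled to library size with TMM factors, and fold changes are DT over PBS. When any one of DT 3, DT 4, DT 5, PBS 1, PBS 2 and PBS 6 was left out, edgeR called 0 of the 10. Over all genes tested these fits also called 0, with a smallest adjusted p of 0.0629 to 0.0849. In them 7 or 8 of the 10 had an unadjusted p under 0.05, and the smallest adjusted p among the 10 lay between 0.0629 and 0.0865. Without DT 1 edgeR called 6 of the 10, where it called 115 of 22895 genes higher. Without PBS 4 it called 7 of the 10, and the smallest adjusted p was 0.0249 both among the 10 and over all genes. The share of all genes called in that fit is not given here. Because the tissue was not separated into cells, more class II-positive cells and more class II RNA per cell cannot be told apart.

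**Figure D1:**
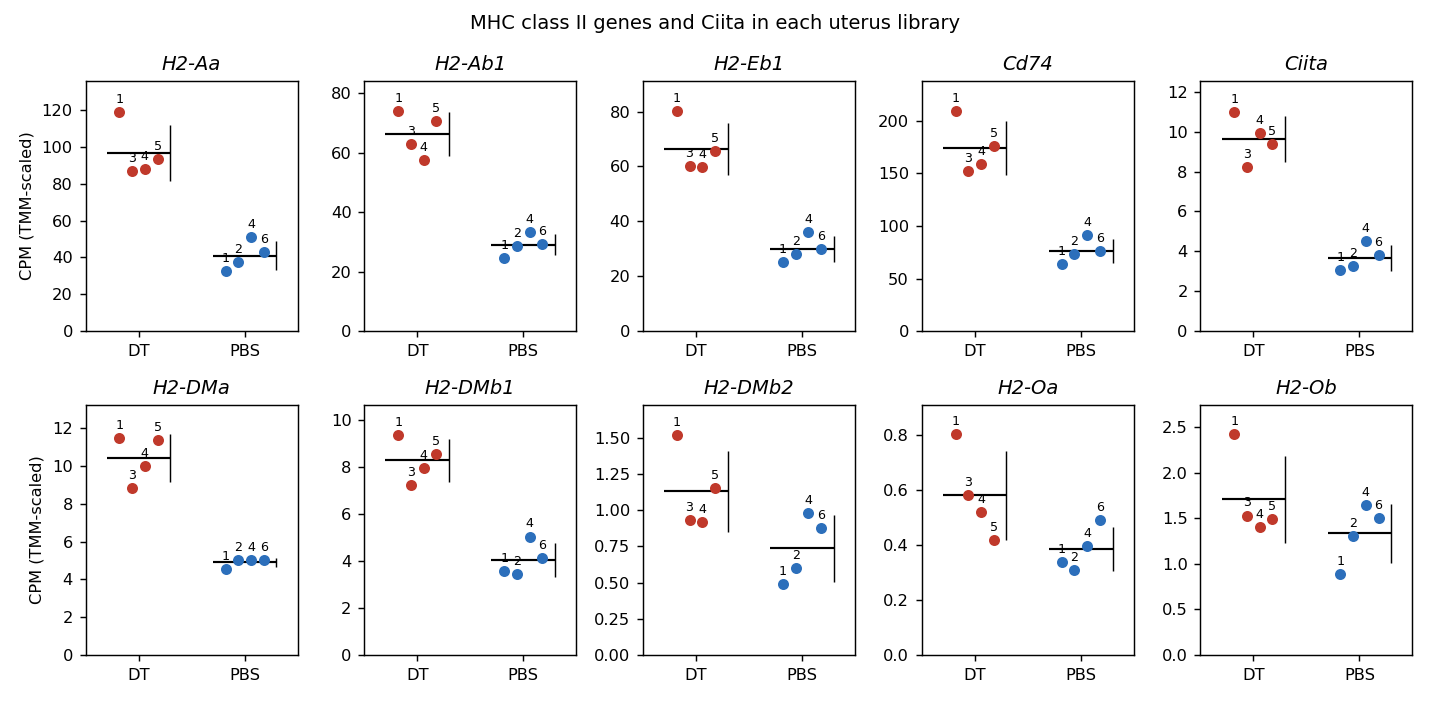
CPM (TMM-scaled) of the 10 genes in each library, with uteri labelled DT in red and uteri labelled PBS in blue, numbered by replicate; horizontal lines are group means and vertical lines 1 SD (n = 4 each). The groups are separate for 7 genes and overlap for H2-DMb2, H2-Oa and H2-Ob.

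The classical chains form the surface molecule. H2-Aa, the alpha chain of the A molecule (chromosome 17, 34282744 to 34287823, minus strand, GRCm38), measured 119, 86.7, 87.9 and 93.2 CPM in uteri DT 1, DT 3, DT 4 and DT 5, against 32.8, 37.5, 51.1 and 42.7 CPM in uteri PBS 1, PBS 2, PBS 4 and PBS 6. The lowest DT value exceeded the highest PBS value, DT 1 stood above its group, and PBS 4 was the highest of its own. The log2 fold change of H2-Aa was 1.24 ± 0.16 (SE; edgeR adjusted p = 0.0322).
H2-Ab1, the beta chain that pairs with H2-Aa (chromosome 17, 34257689 to 34269419, plus strand), measured 74, 62.8, 57.5 and 70.7 CPM in uteri labelled DT, against 24.7, 28.7, 33.5 and 29.4 CPM in uteri labelled PBS. Its groups did not overlap, and the order of libraries within the PBS group had replicate 4 highest and replicate 1 lowest. Its log2 fold change was 1.19 ± 0.11 (SE; edgeR adjusted p = 0.0153).
H2-Eb1, the beta chain of the E molecule (chromosome 17, 34305867 to 34316674, plus strand), measured 80.1, 60.2, 59.9 and 65.6 CPM in uteri labelled DT, against 25.2, 28.1, 36.2 and 30 CPM in uteri labelled PBS. Again DT 1 and PBS 4 were the highest of their groups. The log2 fold change of H2-Eb1 was 1.15 ± 0.14 (SE; edgeR adjusted p = 0.0306).

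The alpha chain that pairs with H2-Eb1 was not detected. Its locus, annotated as H2-Ea-ps (a polymorphic pseudogene name, chromosome 17), had a count of 0 in all 8 libraries. A count of 0 allows up to 3 counts, a level of 0.0233 to 0.0327 CPM across libraries. Some mouse strains carry a promoter deletion that silences this locus and others, BALB/c among them, carry an expressed copy. H2-Eb2, a related beta gene with 3 to 16 counts in uteri labelled DT and 4 to 13 counts in uteri labelled PBS, fell below the filter.

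Cd74, the invariant chain that fills the groove during assembly (on chromosome 18), measured 209, 152, 159 and 176 CPM in uteri labelled DT, against 63.8, 73.3, 91.9 and 76.3 CPM in uteri labelled PBS. It followed the same order of libraries as H2-Aa at the top of each group, with no overlap. Its log2 fold change was 1.19 ± 0.14 (SE; edgeR adjusted p = 0.0296).

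Ciita, the transactivator (chromosome 16, 10480059 to 10528418, plus strand), measured 11, 8.25, 9.94 and 9.36 CPM in uteri labelled DT, against 3.08, 3.25, 4.5 and 3.83 CPM in uteri labelled PBS. The smallest DT value, that of replicate 3, was well above the largest PBS value, that of replicate 4. Ciita had the largest log2 fold change of the 10 genes, 1.39 ± 0.15 (SE; edgeR adjusted p = 0.0175), although its 95% confidence interval of 1.05 to 1.73 overlapped those of the other 6 genes that rose. Ciita can start from several promoters used by different cell types, and counts per gene do not separate them.

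H2-DM, the peptide exchange factor, was represented by 1 alpha and 2 beta genes. H2-DMa (chromosome 17, 34119541 to 34139101, plus strand) measured 11.5, 8.86, 10 and 11.4 CPM in uteri labelled DT, against 4.57, 5.04, 5.03 and 5.01 CPM in uteri labelled PBS. The PBS values lay close together, and the DT values were all higher. The log2 fold change of H2-DMa was 1.09 ± 0.11 (SE; edgeR adjusted p = 0.0153). Of the 75-base windows of its transcripts, 7.46% are shared with the gene Brd2, so part of its reads is uncertain.
H2-DMb1 (chromosome 17, 34153072 to 34160230, plus strand) measured 9.38, 7.22, 7.95 and 8.57 CPM in uteri labelled DT, against 3.59, 3.45, 5.04 and 4.13 CPM in uteri labelled PBS. All DT values lay above all PBS values, and the log2 fold change was 1.03 ± 0.15 (SE; edgeR, adjusted p = 0.0399).
H2-DMb2 (chromosome 17, 34143307 to 34151555, plus strand) measured 1.52, 0.929, 0.918 and 1.15 CPM in uteri labelled DT, against 0.49, 0.598, 0.982 and 0.879 CPM in uteri labelled PBS. PBS 4 exceeded DT 3 and DT 4. Its log2 fold change of 0.61 had a 95% confidence interval of -0.01 to 1.23 and did not pass (edgeR adjusted p = 0.571). The beta genes are near-copies: 15.8% of the 75-base windows of H2-DMb1 transcripts and 16.2% of those of H2-DMb2 occur in another gene, mostly each other, so reads of these genes could not all be placed with certainty.

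H2-O restrains H2-DM and is known mainly from B cells and some dendritic cells. H2-Oa (chromosome 17, 34092340 to 34095234, plus strand) measured 0.801, 0.58, 0.52 and 0.417 CPM in uteri labelled DT, against 0.338, 0.309, 0.397 and 0.491 CPM in uteri labelled PBS. PBS 6 exceeded DT 5. The log2 fold change was 0.60 with a 95% confidence interval of 0.02 to 1.17 (edgeR adjusted p = 0.567). Its counts were 43 to 103 reads in uteri labelled DT and 30 to 52 reads in uteri labelled PBS, and 11.8% of its windows are shared with the overlapping annotation BC051537.
H2-Ob (chromosome 17, 34238903 to 34254414, plus strand) measured 2.42, 1.53, 1.4 and 1.49 CPM in uteri labelled DT, against 0.893, 1.31, 1.64 and 1.5 CPM in uteri labelled PBS. Apart from DT 1 and PBS 1, the libraries of both groups lay between 1.31 and 1.64 CPM. The log2 fold change of H2-Ob was 0.36 with a 95% confidence interval of -0.21 to 0.92 (edgeR adjusted p = 0.596).

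Levels of different genes were set side by side as CPM per kilobase of annotated exon. On this scale the DT means were 104 for Cd74, 34.2 for H2-Eb1, 25.8 for H2-Ab1, 25.4 for H2-Aa, 4.93 for H2-DMb1, 3.03 for H2-DMa, 1.01 for Ciita, 0.645 for H2-DMb2, 0.412 for H2-Oa and 0.318 for H2-Ob. The PBS means were 45.5 for Cd74, 15.4 for H2-Eb1, 11.3 for H2-Ab1 and 10.8 for H2-Aa. They were 2.41 for H2-DMb1, 1.43 for H2-DMa, 0.384 for Ciita, 0.422 for H2-DMb2, 0.273 for H2-Oa and 0.249 for H2-Ob. The order was therefore the same in both groups except that Ciita stood above H2-DMb2 in uteri labelled DT and below it in uteri labelled PBS. The library ranges of H2-Aa overlapped those of H2-Ab1 and H2-Eb1 in both groups, and so did those of Ciita with H2-DMb2 and of H2-Oa with H2-Ob. Within libraries, H2-Eb1 stood above H2-Aa in 4 of 4 uteri labelled DT and 4 of 4 labelled PBS, and Ciita stood above H2-DMb2 in 4 of 4 labelled DT and 1 of 4 labelled PBS. H2-Aa stood above H2-Ab1 in 2 of 4 labelled DT and 1 of 4 labelled PBS, and H2-Oa above H2-Ob in 4 of 4 labelled DT and 2 of 4 labelled PBS. The exon length joins the bases of all annotated transcripts of a gene, 3798 for H2-Aa and 1944 for H2-Eb1. In CPM without this division H2-Aa stood above H2-Eb1. Their means were 96.7 and 66.4 CPM in uteri labelled DT and 41 and 29.9 CPM in uteri labelled PBS. The order of genes therefore depends on the lengths used.

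The make-up of the class II signal was almost the same in every library. Of the summed CPM per kilobase of the 10 genes, Cd74 held 51.0% to 52.4% in uteri labelled DT and 51.0% to 52.1% in uteri labelled PBS. H2-Eb1 held 16.7% to 17.4% in uteri labelled DT and 17.2% to 17.6% in uteri labelled PBS. The scarce genes differed more. H2-Ob held 0.138% to 0.19% of the signal in uteri labelled DT and 0.225% to 0.313% in uteri labelled PBS. H2-DMb2 held 0.29% to 0.366% in uteri labelled DT and 0.38% to 0.564% in uteri labelled PBS, and H2-Oa 0.148% to 0.24% in uteri labelled DT and 0.262% to 0.392% in uteri labelled PBS. Ciita held 0.485% to 0.575% in uteri labelled DT and 0.407% to 0.45% in uteri labelled PBS. Shares of one total depend on each other, so these ranges are descriptions. The size of each share also rests on the exon lengths used.

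**Figure D2:**
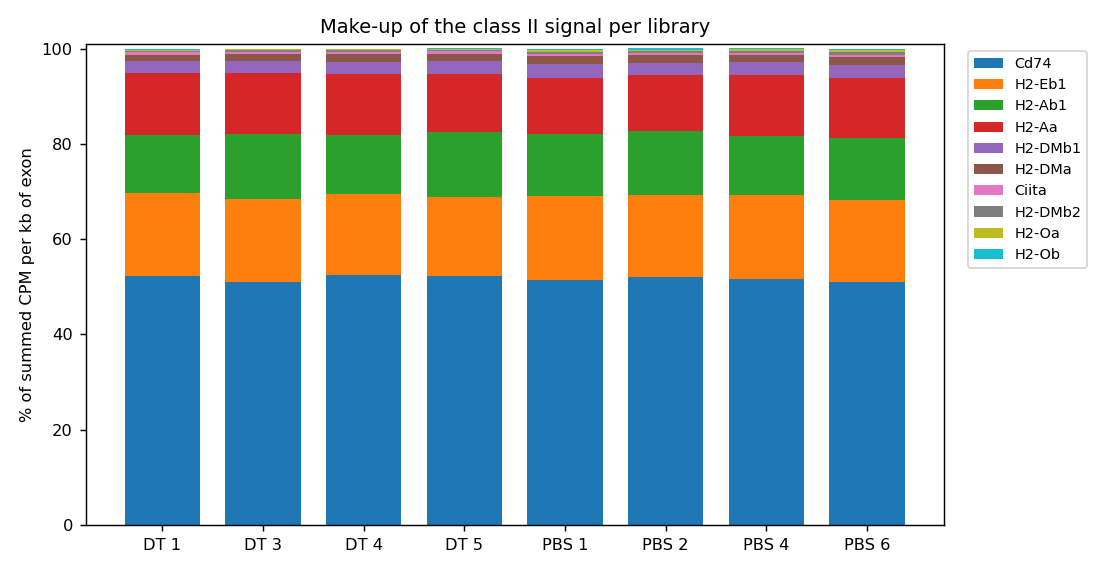
Stacked bars of the share of each of the 10 genes in their summed CPM per kilobase of exon (y axis, percent), with uteri labelled DT on the left and uteri labelled PBS on the right. Cd74 holds 51.0% to 52.4% in every library.

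Ratios between gene pairs within a library do not depend on library size or scaling. For 12 pairs the log2 ratio was compared between groups with a two-sided exact permutation test over the 70 assignments of 4 libraries to each group, whose smallest possible p is 0.0286. After Benjamini-Hochberg adjustment over the 12 pairs, 0 passed, and 1 pair had an unadjusted p under 0.05. With this smallest p, a pair that separates alone cannot pass, so the lack of passing pairs does not show that the ratios were alike. Cd74 to H2-Aa was 1.76, 1.76, 1.81 and 1.89 in uteri labelled DT and 1.94, 1.96, 1.8 and 1.79 in uteri labelled PBS (exact permutation p = 0.229, adjusted 0.343). H2-Ab1 to H2-Aa and H2-DMa to H2-Aa also overlapped between the groups (exact permutation p = 0.514 and 0.314). H2-Ob to H2-DMb1 was 0.258, 0.212, 0.176 and 0.174 in uteri labelled DT and 0.248, 0.38, 0.326 and 0.364 in uteri labelled PBS (exact permutation p = 0.0571, adjusted 0.114). DT 1 and PBS 1 were the libraries that overlapped there.

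The pair with a complete separation was H2-Aa to Ptprc, which encodes the leukocyte surface protein CD45. That ratio was 1.89, 1.68, 1.87 and 1.84 in uteri labelled DT and 0.668, 0.671, 1.25 and 0.854 in uteri labelled PBS, a log2 difference of 1.13 (exact permutation p = 0.0286, the smallest possible, adjusted 0.114). All DT ratios were above all PBS ratios, while Ptprc itself measured 53.1 ± 6.88 CPM in uteri labelled DT and 48.9 ± 6.23 CPM in uteri labelled PBS (SD, n = 4 each; edgeR adjusted p = 0.68). H2-Aa to Csf1r, the receptor of the macrophage growth factor, was 1.25, 0.51, 0.45 and 0.521 in uteri labelled DT and 0.209, 0.265, 0.461 and 0.328 in uteri labelled PBS (exact permutation p = 0.0571). H2-Aa to Itgax, the CD11c integrin of dendritic cells and some macrophages, was 7.28 to 10.7 in uteri labelled DT and 5.99 to 7.75 in uteri labelled PBS (exact permutation p = 0.0571). Ciita to Nlrc5, the related transactivator of class I genes, had overlapping ranges of 0.127 to 0.319 in uteri labelled DT and 0.142 to 0.287 in uteri labelled PBS (exact permutation p = 0.686).

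**Figure D3:**
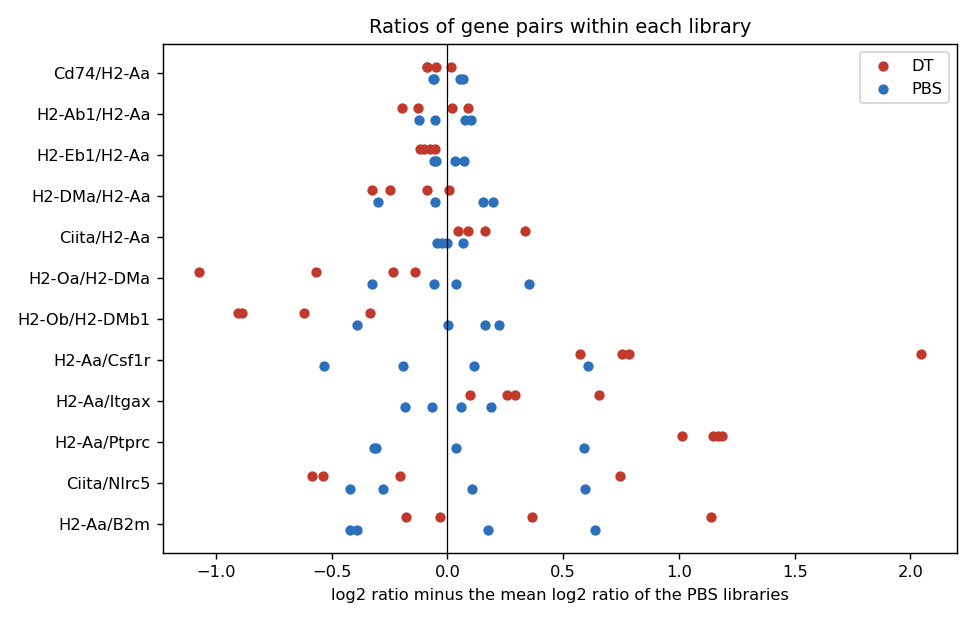
Log2 ratio of 12 gene pairs in each library (x axis), drawn as the distance from the mean log2 ratio of uteri labelled PBS, with uteri labelled DT in red above uteri labelled PBS in blue. The groups separate completely for H2-Aa/Ptprc, where the log2 difference is 1.13, and overlap for the other pairs.

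Genes of the factors that bring Ciita to DNA did not pass the test. Of 7 promoter factors, the RFX subunits Rfx5, Rfxank and Rfxap, the NF-Y subunits Nfya, Nfyb and Nfyc, and Creb1, 0 passed by edgeR in either direction and 0 had an unadjusted p under 0.05. Their median log2 fold change was 0.01. Rfx5, the DNA-binding RFX subunit, had the smallest p of the 7. It measured 32.4, 25.2, 27.5 and 24.8 CPM in uteri labelled DT and 20.8, 19.4, 27.1 and 25.1 CPM in uteri labelled PBS, with overlap (log2 fold change 0.25 ± 0.13, SE; edgeR adjusted p = 0.571). The log2 fold changes of Nfya, Nfyc and Creb1 had 95% confidence intervals within -0.17 and 0.15.

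Among genes of invariant chain cleavage and class II turnover, cathepsin S stood apart. Of 8 tested, 1 rose and 0 fell, where 0.322% of all genes tested rose and 0.00441% fell. The median log2 fold change of the 8 was -0.26. The gene that rose was Ctss, cathepsin S, the protease of the last cut in the invariant chain. It measured 51.3, 41.6, 39.9 and 45.6 CPM in uteri labelled DT, against 21.7, 22.5, 23.8 and 21.8 CPM in uteri labelled PBS. The groups were far apart, and the log2 fold change was 0.99 ± 0.09 (SE; edgeR, adjusted p = 0.0153). Ctsl, a cathepsin that does the same work in thymic epithelium, measured 396 ± 104 CPM in uteri labelled DT and 459 ± 96.9 CPM in uteri labelled PBS (SD, n = 4 each; edgeR adjusted p = 0.694). Ifi30, the thiol reductase of endosomes, measured 77.3 ± 14.5 CPM in uteri labelled DT and 75.4 ± 4.26 CPM in uteri labelled PBS (SD, n = 4 each; edgeR adjusted p = 0.916). March1, a ubiquitin ligase that takes class II off the surface, measured 5.77, 3.58, 3.67 and 4.01 CPM in uteri labelled DT and 2.78, 2.9, 2.98 and 2.9 CPM in uteri labelled PBS. Its groups did not overlap, yet it did not pass (log2 fold change 0.56 ± 0.16, SE; edgeR adjusted p = 0.451). March8 and Ctsd had log2 fold changes of -0.55 and -0.42 and did not pass (edgeR adjusted p = 0.571 for both).

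On the route from interferon-gamma to Ciita, 1 of 9 genes rose and 0 fell, where 0.322% of all genes tested rose. The median log2 fold change of the 9 was 0.16, and 8 lay above 0. At an unadjusted edgeR p under 0.05, 5 were higher, where 4.72% of all genes were. In 3 of the 9 every DT library lay above every PBS library, where 3.33% of all genes did so. Irf1, a factor that acts on the interferon-responsive promoter of Ciita, measured 43.5, 64.9, 65.7 and 71.7 CPM in uteri labelled DT, against 31.4, 31.9, 31.3 and 34.1 CPM in uteri labelled PBS. All DT values were higher, and replicate 1, the DT library with the most class II RNA, had the least Irf1 of its group (log2 fold change 0.93 ± 0.14, SE; edgeR adjusted p = 0.0491). Ifng had 19 to 30 counts in uteri labelled DT and 6 to 8 counts in uteri labelled PBS, and it did not pass (log2 fold change 1.59 ± 0.27, SE; edgeR adjusted p = 0.0746). Among 17 alternative fits, Ifng passed in 3. The receptor chains Ifngr1 and Ifngr2 had log2 fold changes of 0.13 and 0.05. Transcript windows shared with other annotations made up 16.2% for Ifng, 20.2% for Rfx5, 24.6% for Ctsl and 31.3% for Ctsd, so part of their reads is uncertain. Ctss and Irf1 also lost their calls when any one of the 6 libraries named above for the class II genes was left out (edgeR adjusted p of 0.0663 to 0.0849 for Ctss and 0.152 to 0.214 for Irf1). Irf1 lost its call without PBS 4 too (edgeR adjusted p = 0.0993).

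**Figure D4:**
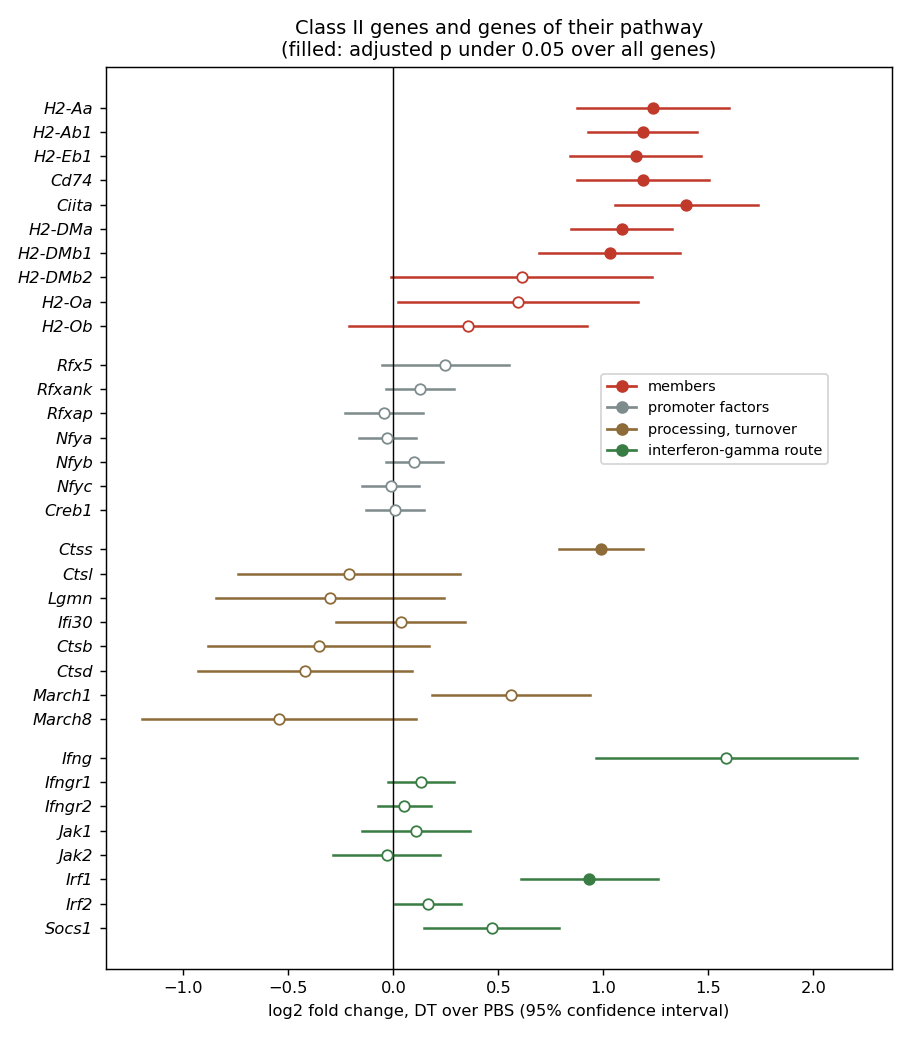
Log2 fold change of DT over PBS (x axis) with its 95% confidence interval for the 10 class II genes and 23 of the 24 tested genes of their pathway, coloured by group; filled circles had an edgeR adjusted p under 0.05 over all genes. The classical chains, Cd74, Ciita, H2-DMa and H2-DMb1 lie near or above 1, beside Ctss and Irf1, and the promoter factors lie near 0.

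The level of conceptus markers differed widely between libraries. Of 13 such markers 10 were tested. Their mean log2 CPM was -1.16, 1.08, -0.33 and 0.83 in uteri DT 1, DT 3, DT 4 and DT 5, and 3.72, 5.23, -0.76 and 0.74 in uteri PBS 1, PBS 2, PBS 4 and PBS 6. The summed level was 13.8 to 52.7 CPM in uteri labelled DT and 13.2 to 856 CPM in uteri labelled PBS, and 0 of the 10 passed the test, against 7 lower at an unadjusted p under 0.05. The DT library with the fewest conceptus reads had the highest level of 10 of the 10 class II genes in its group. PBS 4, with the fewest in its own group, was highest for 8 of 10 and was second for H2-DMa and H2-Oa. Without PBS 1 and PBS 2, which share a title suffix and whose conceptus level lay outside the DT range, the log2 fold changes were 1.04 for H2-Aa, 1.07 for H2-Ab1, 1.05 for Cd74, 1.21 for Ciita and 1.05 for H2-DMa. In that fit 0 members passed (adjusted p from 0.369, with 7 at an unadjusted p under 0.05). With the conceptus level as a covariate, the same 7 genes passed (edgeR adjusted p = 0.0254 for 6 of them and 0.0255 for H2-DMb1), with log2 fold changes from 0.85 for H2-DMb1 to 1.21 for Ciita. The smallest edgeR adjusted p over all genes in that fit was also 0.0254. The share of all genes that passed in that fit is not given here, so the 7 cannot be set against it. H2-DMb2, H2-Oa and H2-Ob then had log2 fold changes of 0.31, 0.36 and 0.12.

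**Figure D5:**
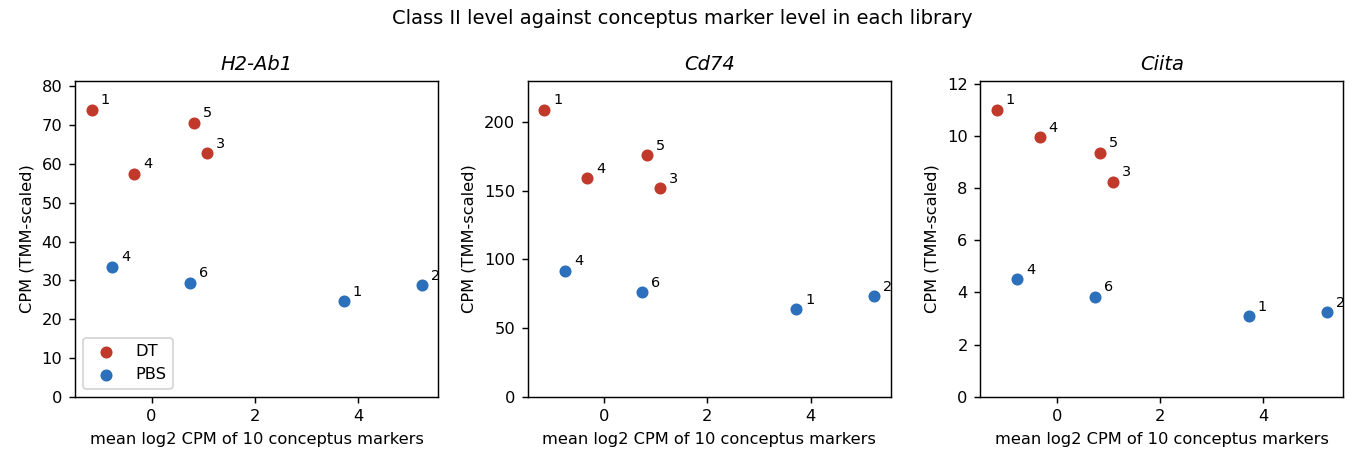
CPM of H2-Ab1, Cd74 and Ciita (y axes, from 0) against the mean log2 CPM of 10 conceptus markers (x axis) in each library, DT in red and PBS in blue, numbered by replicate. The conceptus level of PBS 4 and PBS 6 lies within the DT range, and their class II values lie below those of all 4 uteri labelled DT.

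Markers of class II-bearing cell types were measured beside these genes, and their part in the class II result was not tested. Over all genes tested, 0.322% rose. Of 10 dendritic cell markers, 1 rose (Xcr1, a receptor of cross-presenting dendritic cells, 2.4 ± 0.534 CPM in uteri labelled DT and 0.983 ± 0.065 CPM in uteri labelled PBS; SD, n = 4 each; edgeR adjusted p = 0.0367). Of the 10, 6 had a log2 fold change above 0. Clec9a and Batf3 of the same list had log2 fold changes of 0.36 and 0.78 with overlap (edgeR adjusted p = 0.572 and 0.552). The summed level of the dendritic cell markers was 72.8 to 88.9 CPM in uteri labelled DT and 63.1 to 75.5 CPM in uteri labelled PBS. Itgax had a log2 fold difference of 0.94 (edgeR adjusted p = 0.225), and Ccr7, of migrating dendritic cells, one of -0.52 (edgeR adjusted p = 0.563). Of 12 macrophage markers, C1qa and C1qb rose (edgeR adjusted p = 0.0353 and 0.0491), 9 had a log2 fold change above 0, and the summed level was 561 to 633 CPM in uteri labelled DT and 444 to 516 CPM in uteri labelled PBS. Adgre1, the F4/80 antigen, had a log2 fold change of 0.67 without overlap (edgeR adjusted p = 0.418). Below 0 were Cd68, Cd14 and Mertk, with log2 fold changes of -0.54, -0.11 and -0.04, none of which passed. The summed class II level was 390 to 518 CPM in uteri labelled DT and 160 to 230 CPM in uteri labelled PBS.

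B cell markers were scarce and did not rise. Their summed level was 2.21 to 3.52 CPM in uteri labelled DT and 2.99 to 4.62 CPM in uteri labelled PBS. Of 7, 0 passed by edgeR, against 3 lower at an unadjusted p under 0.05. Ms4a1 and Pax5 lay lower in every DT library than in any PBS library, where 1.73% of all genes did so. Pax5, the B cell identity factor, measured 0.205 ± 0.0581 CPM in uteri labelled DT and 0.793 ± 0.419 CPM in uteri labelled PBS (SD, n = 4 each; edgeR adjusted p = 0.147). Of 8 T cell markers, 4 rose (Cd3e, Cd5, Lck and Cd8b1), where 0.322% of all genes tested did. All 8 lay above the PBS range, where 3.33% of all genes did. Their sums were 14.2 to 16.6 CPM in uteri labelled DT and 4.73 to 7.78 CPM in uteri labelled PBS. Of 8 class II receptors and costimulators 0 passed, against 3 higher at an unadjusted edgeR p under 0.05, where 4.72% of all genes were. Cd4, the co-receptor that binds class II, had a log2 fold difference of 1.18 (edgeR adjusted p = 0.075). Endothelial markers summed to 655 to 943 CPM in uteri labelled DT and 672 to 1470 CPM in uteri labelled PBS, and epithelial markers to 163 to 196 CPM in uteri labelled DT and 136 to 367 CPM in uteri labelled PBS. None of the markers in these lists had a count of 0 in all 8 libraries. Uterine stroma and muscle markers, which fit the labelled tissue, summed to 5990 to 11600 CPM in uteri labelled DT and 9260 to 14500 CPM in uteri labelled PBS.

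The genes whose level followed H2-Ab1 most closely within groups were ranked by Pearson correlation of log2 CPM over the 8 libraries after each group's mean was subtracted. Leaving out the class II genes, the 8 highest of 13756 were Hus1, Rpl7, Camk2b, Tead1, Bcas2, Lck, Lrrc71 and Rasd1, with r between 0.897 and 0.948. Of these, Lck, a T cell kinase, rose in uteri labelled DT (edgeR adjusted p = 0.0417), and Hus1, a DNA damage checkpoint gene, had a log2 fold change of 0.01. By the same measure the other class II genes ranged from 0.35 for H2-Oa to 0.92 for H2-Eb1 and Cd74. With 8 libraries that share depth and conceptus differences, these values only describe this set.

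Total counts were 94794512 to 109847604 per library, a spread of 1.16-fold. H2-Oa and H2-DMb2, the genes with the fewest reads, had 30 to 103 and 45 to 195 reads per library. Foxp3, the marker of the targeted cells, overlapped between the groups. It measured 5.12, 5.1, 5.72 and 5.69 CPM in uteri labelled DT and 4.89, 4.36, 5.44 and 4.86 CPM in uteri labelled PBS (edgeR adjusted p = 0.595). Its log2 fold change was 0.145, with a confidence interval of -0.086 to 0.377 at the level used for the other genes. The loss of regulatory T cells that the labels describe was therefore not seen in Foxp3 RNA. Foxp3 shares 18.9% of its windows with other genes, so part of its reads is uncertain. The number of regulatory T cells was not tested. Hbegf, the mouse counterpart of the human toxin receptor gene, measured 7.85 ± 1.2 CPM in uteri labelled DT and 9.71 ± 1.99 CPM in uteri labelled PBS (SD, n = 4 each; edgeR adjusted p = 0.571).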

How the data were processed

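RNA of the uterus with fetal tissue was sequenced as paired reads of about 75 bases, per the labels' protocols. The deposited values are raw read counts per Ensembl gene, whole numbers that were not normalized. The submitters' processing notes name GRCm38 and the tools Trimmomatic, SAMtools, HISAT2, DESeq2 and featureCounts. Their versions, the annotation and the strand setting were not given in these sources, so overlapping genes on opposite strands could not be told apart. The series table and the tables per library held the same values (0 cells differed). GENCODE M21 gave symbols to 49326 genes by Ensembl ID, with coordinates and exon lengths.

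Counts were filtered with filterByExpr (minimum count 10, minimum total 15), scaled by TMM and tested with edgeR 4.0.16 in R 4.3.3. The robust quasi-likelihood test was two-sided, had treatment as its only term and was adjusted over 22693 genes by Benjamini-Hochberg. Alternatives used limma 3.58.1 and DESeq2 1.42.0, other scalings, no filter, left-out libraries, a replicate block and a conceptus marker covariate. Ratios and promoter motifs were computed in Python 3.11.15. Over 28 library pairs the chi-square per degree of freedom was at least 29.02, so no pair was counted as 1 sample. P-values measure the spread between these libraries.

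The members, gene lists and tests were chosen with earlier results of these data known. The naming rule took all 10 members, Foxp3 and Hbegf, the pathway genes past the threshold (otherwise up to 3 with the smallest p), up to 3 genes of a cell type list, and the 8 genes most like H2-Ab1 (mean log2 CPM at least 0, no predicted-model symbol). Other genes named were chosen after their values were seen. Some genes of the lists are counted in them but not reported here by name.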

Additional observations from a re-analysis of the deposited data

Results flagged for a closer look

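A sample far from the other 3 of its group was looked for in 96 sets of 4 values (CPM of the class II and pathway genes, and the 12 ratios), of which 3 stood out; chance gives about 1 in 20. H2-Ob measured 2.42 CPM in DT 1, above 1.4 to 1.53 CPM in the other uteri labelled DT. The ratio of H2-Aa to Csf1r was 1.25 in the same library, against 0.45 to 0.521 in the others of its group. H2-DMa measured 4.57 CPM in PBS 1, below 5.01 to 5.04 CPM in the other uteri labelled PBS. DT 1 also had the lowest conceptus marker level of its group (-1.16 mean log2 CPM) and the lowest sum of uterine stroma and muscle markers (5990 CPM), and their part in these values was not tested.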

How the results depend on the processing

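Leaving out 1 library at a time, edgeR called 0 to 115 genes higher and 0 to 5 lower over all genes, 0 to 7 of the 10 class II genes and 0 to 4 of the 24 pathway genes higher. DESeq2 called 275 higher and 58 lower over all genes, 7 class II genes and 4 pathway genes; limma voom called 51 higher, 7 class II genes and 1 pathway gene. With RLE factors 1 pathway gene was called. With library size only, which moved the median of all genes to 0.12, 2 genes were lower, and 5 class II genes were called. With the conceptus covariate 2 genes were lower and 1 pathway gene higher. Without PBS 1 and PBS 2, 0 genes were higher over all genes, 0 among class II and 0 among pathway genes. Without these and DT 1, 3 class II genes passed. Their smallest edgeR adjusted p was 0.0395, and the smallest over all genes in that fit was 0.00497. The share of all genes that passed in that fit is not given here. The replicate block, which rests on numbers 1 and 4, called 0 genes higher and 0 lower, 0 class II genes (7 at an unadjusted p under 0.05) and 0 pathway genes; same-numbered libraries correlated at -0.491 and 0.321, so the numbers were not taken as pairs. Of 12 ratios 0 passed in any setting tried, and leaving out a library allows none to pass. For the 7 called genes log2 fold changes stayed between 0.79 and 1.51 over 17 alternatives, while H2-Ob ranged from -0.09 to 0.60.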
